A study of Gossypium hirsutum with 9 samples.

Results

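Across 9 libraries of cultured cotton ovules, 373 of 75376 genes with Gohir IDs held their level between 50 and 150 mM glucose and stood much lower at 300 mM. The ovules came from strain TM-1 of upland cotton (Gossypium hirsutum) and were kept for 5 days on medium with 50, 150 or 300 mM glucose, and RNA was sequenced from 3 libraries per concentration. The groups differed in the glucose of the medium alone, so far as the labels say, and they name no mutant, no second agent and no osmotic control, so that an effect of glucose itself and of a more concentrated medium cannot be told apart. Whether replicate libraries stem from separate cultures is not stated, so a p-value here reflects how much these libraries differ, part of which may be technical.

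Values are FPKM (reads per gene, divided by gene length and a library-size term), and levels are given on the log2(FPKM + 0.5) scale. The members were chosen by these levels. The mean level at 150 mM had to lie within 0.5 of that at 50 mM, and the mean at 300 mM had to lie below that at 150 mM by at least 2.38-fold on this scale. The mean FPKM at 150 mM had to reach 2, and every 300 mM library had to lie under each of the other 6 libraries. The differences between concentrations are therefore a description of how the genes were selected, and nothing is read from tests of them. The minimum at 150 mM was reached by 40810 Gohir genes, called expressed genes here. Of these, 1298 were lower at 300 than at 150 mM by the required 2.38-fold, and in 748 of them the 300 mM libraries also stood clear of all others. The first step then divided the 748 into the 373 members, 283 genes that were higher by 0.5 or more at 150 than at 50 mM, and 92 that were lower by as much. With all conditions turned around, 80 genes were level up to 150 mM and raised at 300 mM. A further 5 numbered loci outside the Gohir naming met the other conditions and were not counted as members.

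Each cotton fibre is one elongated cell of the ovule's outer layer, and an isolated ovule takes the sugar for their growth from the medium. Glucose serves plant cells as a carbon source, as a building block of cellulose and as a signal that changes transcription, and at high concentration it also draws water out of cells. Upland cotton is an allotetraploid, so most genes exist as a copy in the A and a copy in the D subgenome, on chromosomes of the same number. The IDs carry the subgenome and chromosome. The files pair no ID with a name or description, and none of the IDs matched the RefSeq gene table of the species (0 matches), so no function is given for any member. For the same reason the label of the tissue could not be checked against marker genes. The RNA came from whole ovules, in which fewer cells of a type and less RNA per cell cannot be told apart.

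The libraries held 17803779 to 19140297 recovered reads, and in the members 85539 to 395900 reads each. Over all tested genes libraries of a group correlated at 0.972 to 0.979 (50 mM), 0.960 to 0.975 (150 mM) and 0.945 to 0.959 (300 mM). Replicate 1 at 300 mM stood nearer to the 150 mM group than the other 300 mM libraries did. It correlated at 0.958, 0.953 and 0.929 with replicates 3, 1 and 2 at 150 mM, and at 0.953 and 0.945 with its own group. In the members, 2 further libraries stood apart: replicate 2 at 50 mM was low and replicate 2 at 150 mM was high. Over all tested genes both were closest to their own group. Replicate 2 at 50 mM correlated at 0.972 with both libraries of its group and at 0.881 to 0.891 with those at 150 mM. Replicate 2 at 150 mM correlated at 0.960 and 0.966 within its group and at 0.891 to 0.918 with the 50 mM libraries. The labels do not say whether their material differed in any way, and the means at 50 and 150 mM, and so membership, rest in part on them. Values without these 3 libraries are given beside the main summaries.

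The members together took a visibly smaller part of the RNA at 300 mM. They held 1.69%, 1.11% and 1.69% of the reads in replicates 1, 2 and 3 at 50 mM, and 1.48%, 2.16% and 1.44% at 150 mM. At 300 mM they held 0.590%, 0.507% and 0.460%. The group means were 1.49% ± 0.334 (SD, n = 3), 1.69% ± 0.404 and 0.519% ± 0.0658, and the 300 mM libraries did not overlap with the rest, as the selection requires of each gene. Without replicate 2 of both groups the means at 50 and 150 mM were 1.69% and 1.46%, and without replicate 1 the mean at 300 mM was 0.484%. The median level of a member was 4.65, 3.92 and 4.68 at 50 mM, 4.29, 5.10 and 4.29 at 150 mM, and 2.93, 2.84 and 2.63 at 300 mM. Over all expressed genes the median level lay between 3.32 and 3.39 in every library.

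**Figure D1:**
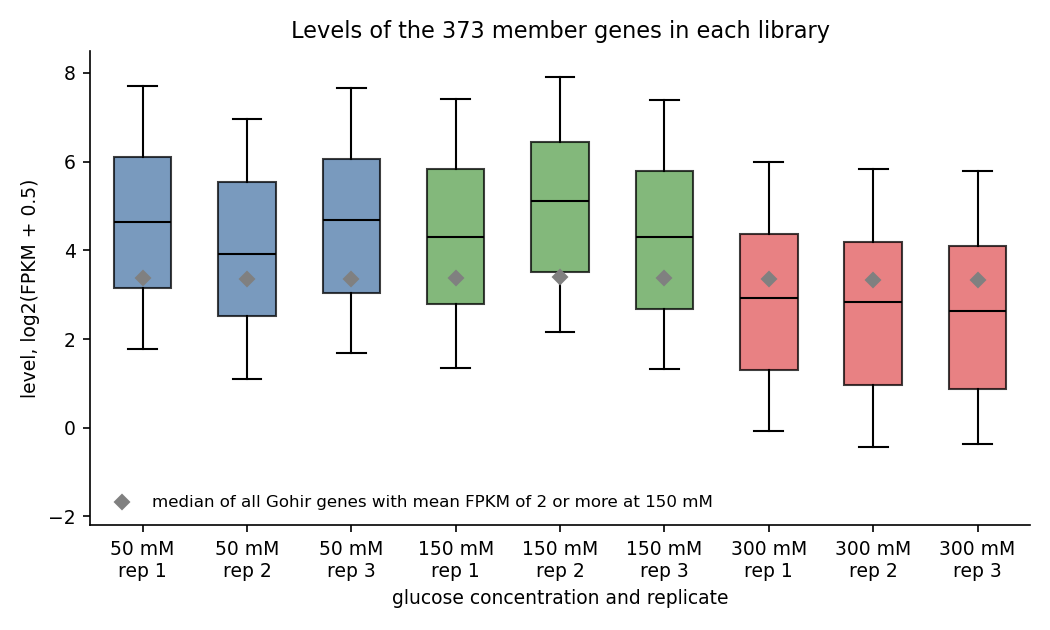
Level of the 373 member genes, as log2(FPKM + 0.5), in each of the 9 libraries; boxes span the quartiles with the median, whiskers the 5th to 95th percentile, and grey diamonds mark the median of the 40810 expressed Gohir genes. The medians at 300 mM are 2.93, 2.84 and 2.63, and replicate 2 is the lowest library at 50 mM (3.92) and the highest at 150 mM (5.10), while the diamonds stay between 3.32 and 3.39.

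The log2 difference from 150 to 300 mM, called the fall here, had a median of -1.68 over the members and reached -3.35, against a median of -0.02 over all expressed genes. In mean FPKM, the members kept between 1.52% and 42.7% of their 150 mM value at 300 mM, with a median of 28.1%. The lower limit came from 1 library of Gohir.D09G129900.v2.1; without replicate 2 at 150 mM the range was 2.80% to 62.0% and the median 33.4%. A fall of 2 or more was reached by 106 members and of 3 or more by 8, and without replicate 2 at 150 mM by 59 and 3. Without replicate 1 at 300 mM the counts were 128 and 15, and the median fall was -1.73. RNA of most members thus remained detectable at 300 mM. The mean FPKM there was under 1 in 64 members, 14 were at 0 in at least 1 library and 0 were at 0 in all 3 libraries. In 145 members (38.9%) the highest 300 mM library was at most 50 percent of the lowest of the other 6 libraries. Among expressed genes this held in 0.583%, but the rule already asked the members for separation and a fall, so nothing is read from it. Against 50 mM the differences ran from -3.46 to -0.77, with a median of -1.63.

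**Figure D2:**
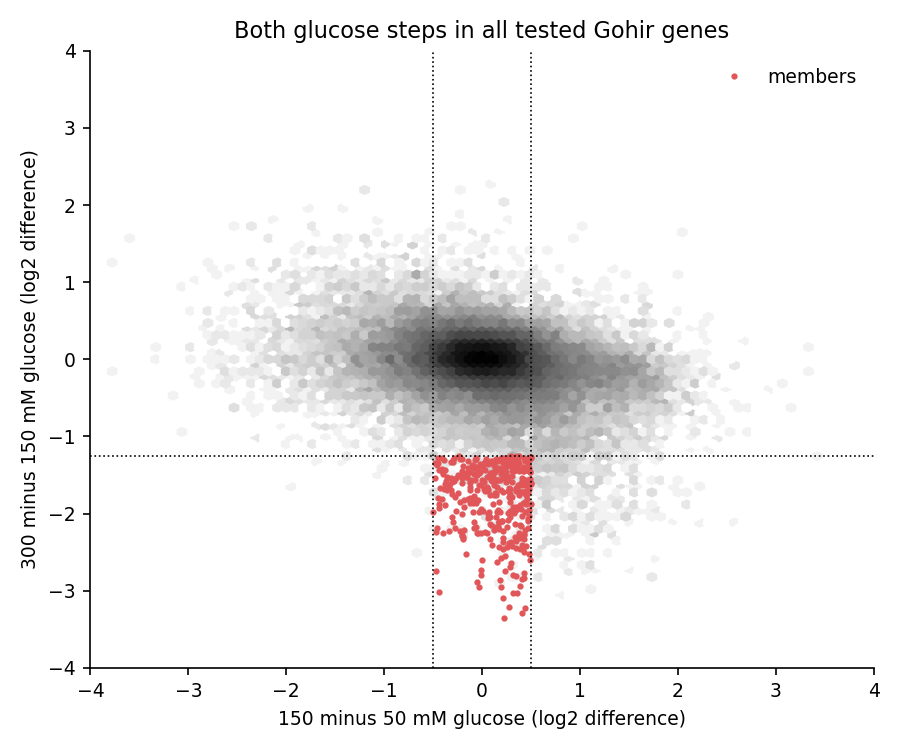
Difference between 150 and 50 mM (horizontal axis) and between 300 and 150 mM glucose (vertical axis), both as differences of mean log2(FPKM + 0.5), for all tested Gohir genes (grey, darker where more genes lie, axes limited to 4 in each direction) and the 373 members (red). Dotted lines mark the limits that chose the members, 0.5 on either side of 0 and a 2.38-fold fall; genes lower at 300 mM continue to both sides of the strip the members fill, with 283 separated genes to its right and 92 to its left.

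In a fit of all genes (limma on log2(FPKM + 0.5), Benjamini-Hochberg adjusted p under 0.05), all 373 members passed the filter on low values. Of these, 324 were called lower at 300 than at 150 mM, where 4.8% of all 50988 tested genes were, and 356 lower at 300 than at 50 mM, where 16.3% were. All 373 members had every 300 mM library below every other library, since the rule asked for it. Among tested genes this held in 6.57%; the 300 mM libraries lay below all at 150 mM in 13.4% and below all at 50 mM in 23.1%. These counts follow from the selection, which used the same contrasts and values, and nothing is read from them. Between 50 and 150 mM, 2 members were called, Gohir.A03G023500.v2.1 as higher and Gohir.D11G230800.v2.1 as lower at 150 mM, against 29.3% of tested genes in either direction. That count too was bounded by the selection. Without replicate 1 at 300 mM 10 of the 373 members were called, beside 15787 of the 50988 tested genes. The count of members also rested on the replicates numbered 2. Without replicate 2 at 150 mM 18 members were called lower at 150 than at 50 mM, beside 5951 of the 50988 tested genes. Without replicate 2 of both groups 49 members were, beside 4198 tested genes, and the median step of the members was -0.29 in place of 0.16. The description of a level that holds up to 150 mM is thus one of the group means and changes with these libraries.

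The member with the largest fall was Gohir.D09G129900.v2.1, whose coding length was 1239 bases. Its FPKM was 8.84, 2.70 and 9.90 at 50 mM, 2.38, 50.9 and 2.87 at 150 mM and 0.282, 0.165 and 0.404 at 300 mM, from 58 to 1155 reads at 150 mM and from 4 to 10 at 300 mM. Replicate 2 at 150 mM stood far above all other libraries, and the remaining libraries at 150 mM were lower than replicates 1 and 3 at 50 mM. The fall of -3.35 became -2.0 without that library. Gohir.A09G136000.v2.1, of 255 bases, had the same shape, with 1.20, 28.7 and 2.83 at 150 mM and 0, 0.201 and 0.393 at 300 mM. Its fall went from -3.01 to -1.81 without replicate 2 at 150 mM. These 2 genes were not among the 324 called lower at 300 than at 150 mM.

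Gohir.A01G110900.v2.1 gave the same size of fall with little spread. Its FPKM was 65.7, 59.2 and 74.5 at 50 mM, 83.6, 94.0 and 78.6 at 150 mM, and 11.1, 9.80 and 9.30 at 300 mM. The means of 66.5 ± 7.64, 85.4 ± 7.85 and 10.1 ± 0.917 (SD, n = 3) give a fall of -3.02 from 150 to 300 mM, and the 300 mM libraries were far from all others. Its 150 mM libraries all lay above its 50 mM libraries, with a first step of 0.36. Replicate 2 was its lowest library at 50 mM and its highest at 150 mM. Gohir.D01G108400.v2.1 was the most abundant of the 10 members of largest fall. Its FPKM was 223.9, 115.6 and 215.2 at 50 mM, 184.2, 247.7 and 181.6 at 150 mM, and 36.6, 22.9 and 20.5 at 300 mM. Here replicate 2 was again the lowest at 50 mM and the highest at 150 mM.

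Between these cases lay Gohir.A06G080833.v2.1, with 103.8, 46.3 and 97.8 at 50 mM, 75.9, 130.3 and 85.1 at 150 mM, and 12.7, 10.3 and 7.09 at 300 mM. Gohir.A03G183400.v2.1 went from 83.8 ± 26.8 and 87.0 ± 50.5 to 9.76 ± 1.42 (SD, n = 3), Gohir.D12G236600.v2.1 from 70.0 ± 29.1 and 86.8 ± 41.5 to 10.7 ± 6.43, and Gohir.A09G212800.v2.1 from 32.2 ± 16.0 and 45.3 ± 33.8 to 3.52 ± 0.756. In each of these 4 genes replicate 2 was the highest library at 150 mM and the lowest at 50 mM. Without replicate 2 at 150 mM the falls of the 10 members named for size ran from -3.26 to -1.81, in place of -3.35 to -2.95; that of Gohir.A09G212800.v2.1 went from -3.29 to -2.72. Gohir.D11G027000.v2.1 was close to the floor at 300 mM, with 8, 1 and 3 reads there against 129, 196 and 151 at 150 mM. Gohir.A07G176000.v2.1, of 258 bases, departed from this order. Its FPKM was 8.49, 28.0 and 20.2 at 50 mM, 16.0, 15.4 and 30.7 at 150 mM and 2.33, 4.76 and 0.388 at 300 mM, so that replicate 2 was its highest library at 50 mM and its lowest at 150 mM.

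**Figure D3:**
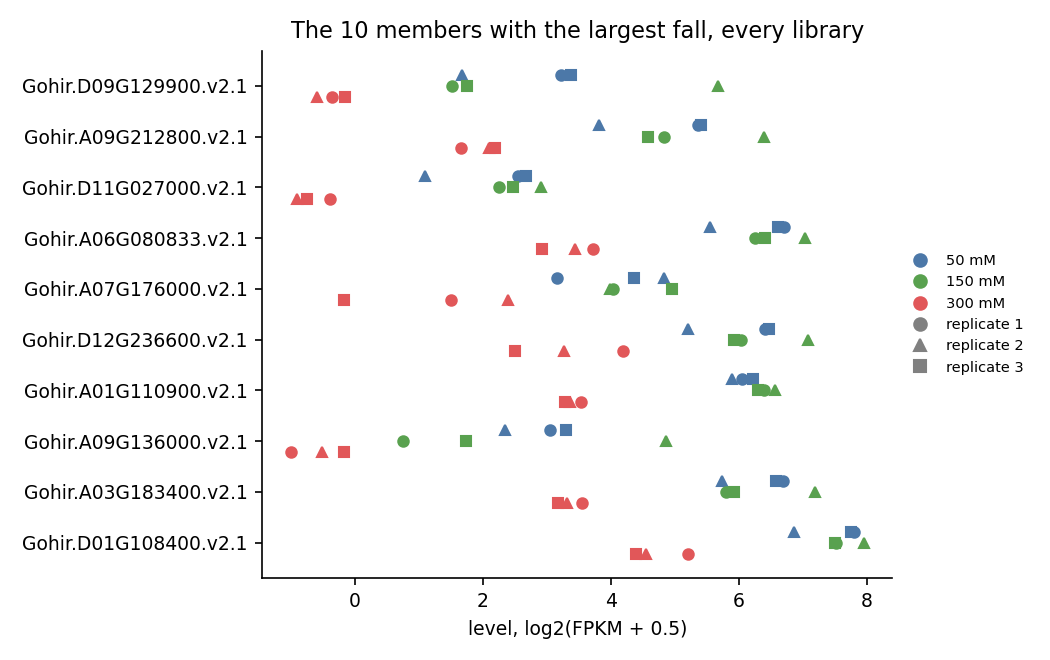
Level, as log2(FPKM + 0.5), of the 10 members with the largest fall in each library; colours give the glucose concentration and shapes the replicate. In most of these genes the triangle of replicate 2 is leftmost among the blue points (50 mM) and rightmost among the green points (150 mM), while Gohir.A01G110900.v2.1 has 9.30 to 11.1 FPKM at 300 mM and 59.2 or more elsewhere.

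Members were more abundant than the typical expressed gene before the fall. Their mean FPKM at 150 mM had a median of 23.7, against 9.98 over expressed genes, and 65 members (17.4%) reached 100 against 3.41% of expressed genes. Some of this follows from the rule, since a low gene cannot fall as far on a log scale with a pseudocount. At 50 mM the median over members was 21.0, and 9.83 over expressed genes. At 300 mM, 6.61 over members faced 9.64 over expressed genes. Coding lengths had a median of 846 bases, against 1074, and 30.3% of the members were under 600 bases, against 23.8%. Within the members the median length was 681 bases in the 65 at an FPKM of 100 or more, 960 bases in the 197 between 10 and 100, and 804 bases in the 111 below 10, while the median falls in these bands were -1.70, -1.62 and -1.72.

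The most abundant member at 150 mM was Gohir.A07G043600.v2.1. Its FPKM was 544.8, 392.1 and 540.6 at 50 mM, 587.8, 613.5 and 642.4 at 150 mM, and 226.8, 128.5 and 93.2 at 300 mM. All 300 mM libraries were well below the others, and replicate 1 kept the most, more than 2 times the level of replicate 3. Gohir.D12G256000.v2.1 followed, with 525.5, 385.6 and 567.2 at 50 mM, 519.1, 671.6 and 477.8 at 150 mM, and 230.1, 153.6 and 179.6 at 300 mM. Gohir.A07G081200.v2.1, of 237 bases, had 704.6, 410.1 and 540.2 at 50 mM, 401.4, 540.4 and 359.1 at 150 mM, and 140.3, 133.4 and 134.2 at 300 mM. Its libraries at 50 and 150 mM overlapped widely, and those at 300 mM were nearly equal.

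Gohir.A10G105100.v2.1 and Gohir.D10G163601.v2.1 were close to each other in level, and both had a coding length of 579 bases on chromosomes of the same number. The search for counterparts described below, by length and gene order, did not pair them. The former went from 348.2 ± 72.0 and 445.9 ± 61.0 to 143.4 ± 17.7 (SD, n = 3), and the latter from 319.7 ± 83.6 and 382.8 ± 42.6 to 119.7 ± 19.2. Their falls were -1.63 and -1.68. The other 5 of the 10 most abundant members had a mean FPKM of 235.1 to 273.5 at 150 mM and of 58.4 to 102.2 at 300 mM. Among them Gohir.A05G317100.v2.1 fell furthest, by -2.04, with 211.3, 237.2 and 256.7 at 150 mM and 81.1, 46.1 and 48.1 at 300 mM. Gohir.D05G347900.v2.1 had the smallest difference, -1.30, with 236.5, 317.8 and 202.9 against 125.6, 81.6 and 99.3. Gohir.A01G202100.v2.1, Gohir.D02G178500.v2.1 and Gohir.A10G027500.v2.1 had differences of -1.61, -1.56 and -1.41. Over these 10 genes the falls ran from -2.13 to -1.30, and from -2.13 to -1.12 without replicate 2 at 150 mM.

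The libraries of a group were ordered alike across the members, a property the rule did not ask for, although it used the means these libraries enter. At 50 mM replicate 2 was the lowest library in 327 of 373 members (87.7%), and in 35.2% of expressed genes. At 150 mM replicate 2 was the highest in 318 members (85.3%), and in 33.96% of expressed genes. Both held for 294 members (78.8%), against 15.2% of expressed genes, and the opposite on both sides for 8 (2.14%), against 14.3%. The difference of replicate 2 from the mean of replicates 1 and 3 had a median of -0.57 at 50 mM and of 0.66 at 150 mM in the members, and of 0.00 at both levels over expressed genes. At 150 mM replicate 2 exceeded both other libraries at least 2-fold in 88 members (23.6%), against 1.63% of expressed genes.

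The same order marked neighbouring gene sets that fell at 300 mM. It held for 208 of the 283 separated genes that were higher at 150 than at 50 mM (73.5%), and for 43 of the 92 that were lower (46.7%). In the 80 genes raised at 300 mM alone it held for 9 (11.3%). Across the members, the deviation of replicate 2 at 150 mM and that of replicate 2 at 50 mM had a Pearson r of -0.53 (Spearman -0.49, 373 genes), against -0.33 (Spearman -0.19) over expressed genes. Points of this relation share the same libraries and are not independent. Members in which replicate 2 had this order, 294 genes, had a median fall of -1.69, or of -1.44 when replicate 2 at 150 mM was left out. In the other 79 the medians were -1.57 and -1.58. The 294 were picked by replicate 2 being their highest library at 150 mM, so leaving it out must make their falls smaller. Nothing is therefore read from the contrast with the 79. Over all 373 members the median was -1.46 without replicate 2 at 150 mM. How membership and the falls changed without these libraries is described here and below, and why they stood apart was not tested.

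**Figure D4:**
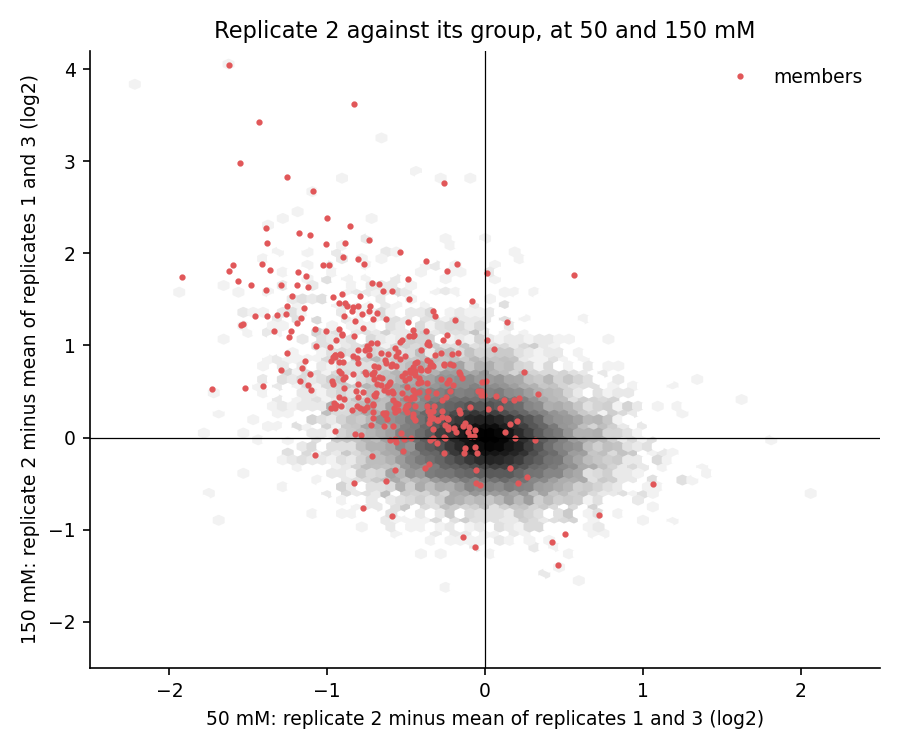
Replicate 2 minus the mean of replicates 1 and 3 on the log2(FPKM + 0.5) scale, at 50 mM (horizontal axis) and 150 mM (vertical axis), for the expressed Gohir genes (grey, darker where more genes lie, a few outside the axes) and the 373 members (red). Expressed genes centre on 0 in both directions, while 294 members have replicate 2 lowest at 50 mM and highest at 150 mM, with medians of -0.57 and 0.66 over all members.

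At 300 mM replicate 1 was the highest library in 201 members (53.9%, against 36.8% of expressed genes) and replicate 3 the lowest in 189 (50.7%, against 35.7%). The difference of replicate 1 from the mean of the other 2 had a median of 0.25. It was widest in Gohir.D05G035100.v2.1, with 7.73, 0.329 and 3.31 at 300 mM, and also large in Gohir.A06G152300.v2.1, with 1.90, 0.0748 and 0.293, and Gohir.A13G160500.v2.1, with 2.07, 0.343 and 0.504. At the other end, replicate 1 was the lowest library in Gohir.D09G072400.v2.1, with 0, 1.95 and 0.848, in Gohir.D02G206100.v2.1, with 6.12, 12.7 and 14.2, and in Gohir.D08G180950.v2.1, with 0.355, 1.45 and 1.07. For 4 of the 6 the mean FPKM at 150 mM was between 3.61 and 5.44, so that few reads set these values.

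Members that kept a steady level within each group were few. The SD of the log2 level stayed under 0.25 in all 3 groups in 15 members (4.02%), against 46.1% of expressed genes. The steadiest, named after their values were seen, were Gohir.A07G030700.v2.1 and Gohir.D11G029600.v2.1. The former had 201.6, 170.9 and 200.3 at 50 mM, 199.3, 215.5 and 204.1 at 150 mM, and 79.9, 78.9 and 88.6 at 300 mM. The latter had 101.0, 98.8 and 111.4 at 50 mM, 89.6, 99.9 and 95.2 at 150 mM, and 37.2, 34.5 and 30.7 at 300 mM. In both genes the groups at 50 and 150 mM overlapped and the 300 mM group was far below. Replicate 2 was still the lowest library at 50 mM and the highest at 150 mM in both. Its log2 difference from the mean of replicates 1 and 3 was -0.23 at 50 mM and 0.10 at 150 mM in the former. In the latter it was -0.10 and 0.11. Small differences within a group follow from how these genes were named.

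The members were spread over both subgenomes, with 184 on A and 189 on D chromosomes (49.3% and 50.7%, against 49.3% and 50.5% of expressed genes). They were found on all 26 chromosomes. The largest numbers lay on D02 and D05 with 26 each and on A05 with 25. Relative to the expressed genes of a chromosome the share was 1.73% on D02 and 1.42% on A03 at the upper end, and 0.528% on D03 and 0.591% on D07 at the lower end. In the order of ID numbers, 16 members (4.29%) formed 8 pairs of immediate neighbours. A like share was not worked out for other sets of expressed genes, so nothing is read from this count.

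On D09, the neighbours Gohir.D09G131500.v2.1 and Gohir.D09G131600.v2.1 had very different levels. The former had 4.36, 7.19 and 4.90 at 150 mM and 1.67, 1.38 and 1.83 at 300 mM, the latter 168.0, 260.8 and 166.4 and then 41.0, 34.2 and 40.1. On A08, Gohir.A08G103000.v2.1 went from a mean of 89.7 ± 22.1 at 150 mM to 26.9 ± 8.56 at 300 mM (SD, n = 3), and its neighbour Gohir.A08G103100.v2.1 from 56.4 ± 9.02 to 19.7 ± 5.02. On D11, Gohir.D11G029500.v2.1 went from 7.34, 10.8 and 8.22 at 150 mM to 1.997, 1.41 and 1.08 at 300 mM beside Gohir.D11G029600.v2.1, which was described above. The coding lengths within these pairs were 630 and 669, 105 and 354, and 651 and 639 bases. Where neighbours are near-identical copies, the counting may have split their reads, which was not tested.

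Likely counterparts on the other subgenome were sought without sequence, by equal coding length and common gene order on the chromosome of the same number, and are called partners here. The search compared neither levels nor responses, but a length could be recovered only for genes with enough reads. A partner was found for 144 members (38.6%), and for 36.9% of expressed genes. Translocated segments and copies of unequal length give none. For 50 of the 144, forming 25 pairs, the partner was itself a member (34.7% of those with a partner). Members made up 373 of the 40810 expressed genes, and a like share was not worked out for other genes. Reads of one copy counted at the other would make partners alike, and how such reads were treated is not known from the labels or files.

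The pair with the highest level was Gohir.A05G233800.v2.1 and Gohir.D05G236200.v2.1, each of 726 bases. The A gene had 175.6, 151.8 and 233.0 at 50 mM, 173.9, 283.6 and 162.3 at 150 mM and 51.5, 43.0 and 38.0 at 300 mM. The D gene had 113.7, 91.8 and 137.6, then 127.7, 221.7 and 125.3, then 38.1, 33.3 and 26.9. The genes rose and dipped in the same libraries, and the falls were -2.18 and -2.22.

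In 4 further pairs of high level the falls were also close. They were -2.23 and -2.11 for Gohir.A06G078800.v2.1 and Gohir.D06G078100.v2.1, and -2.26 and -2.32 for Gohir.A09G135000.v2.1 and Gohir.D09G131600.v2.1. For Gohir.A06G129800.v2.1 and Gohir.D06G134200.v2.1 they were -1.70 and -1.59, and for Gohir.A08G118100.v2.1 and Gohir.D08G139100.v2.1 -1.73 and -1.59. Without replicate 2 at 150 mM the falls in the 5 pairs ran from -2.12 to -1.31, in place of -2.32 to -1.59. Mean FPKM at 150 mM in these 4 pairs ran from 109.6 to 198.4, and at 300 mM from 27.1 to 46.2. Some pairs of members at lower levels, named after their values were seen, lay further apart. The falls were -3.29 and -1.82 for Gohir.A09G212800.v2.1 and Gohir.D09G206400.v2.1. They were -2.63 and -1.29 for Gohir.A11G169000.v2.1 and Gohir.D11G175200.v2.1.

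A partner was found through the member and not by its own response. Of the 144 partners 137 were tested. In the fit of all genes 98 of these (71.5%) were called lower at 300 than at 150 mM, and 0 were called higher. Over all tested genes 4.8% were called lower. Without replicate 2 at 150 mM 85 of 137 were called, beside 2.82% of all tested genes. Without replicate 1 at 300 mM 95 were, beside 5.96%. These partners include the 50 members, whose values met the rule, so nothing is read from the count of 98. Of the remaining 94, which their own values kept outside it, 87 were tested and 52 (59.8%) called lower, where 4.8% of all tested genes were. Without replicate 2 at 150 mM 43 of 87 were called, beside 2.82% of all tested genes. Without replicate 2 of both groups 51 were, beside 2.77%, and the median was then -1.16. Members and partners share the same 9 libraries, so these counts are not independent of the values that chose the members. The difference was below 0 in 86 of 87, with a median of -1.43 and a range of -3.05 to 0.34. The partners not tested were left out by the filter on low values. With no such filter the difference was below 0 in 91 of 94, with a median of -1.39. Of these, 45 (47.9%) were then called lower, beside 2.93% of all genes. The rule was missed by 59 of the 87 because the step from 50 to 150 mM was 0.5 or more in size, by 35 because the fall was under the limit, and by 38 because libraries overlapped, with several genes counted more than once. In 60 of the 87 (69.0%) replicate 2 was the lowest library at 50 mM and the highest at 150 mM, as in the members. Over the 137 members with a tested partner, the falls of member and partner had a Pearson r of 0.56 and a Spearman rho of 0.61, as a description over genes from the same libraries, with each pair of members entering in both orders.

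Some partners of the most abundant members, named after their values were seen, show how the rule was missed. Because of that choice nothing is read from the adjusted p-values given for them. Gohir.A12G253700.v2.1, the partner of Gohir.D12G256000.v2.1, had 146.3, 90.4 and 163.7 at 50 mM, 272.8, 317.4 and 252.1 at 150 mM, and 87.2, 56.7 and 35.8 at 300 mM. It was higher at 150 mM than at either other concentration in every library, with a log2 difference of -2.30 from 150 to 300 mM (limma adjusted p = 0.00376). Gohir.D07G086800.v2.1, the partner of Gohir.A07G081200.v2.1, had 418.4, 259.6 and 370.0, then 185.5, 248.8 and 164.1, then 55.7, 49.9 and 54.9. It was lower at each concentration than at the one before, with no overlap between groups, and its second difference was -1.87 (limma adjusted p = 0.00207). Gohir.D10G027900.v2.1, the partner of Gohir.A10G027500.v2.1, had 149.8, 201.3 and 191.4 at 150 mM and 69.8, 86.1 and 72.2 at 300 mM. Its difference of -1.24 (limma adjusted p = 0.00362) missed the limit of the rule by a small margin. The exception among the 87 was Gohir.A10G175150.v2.1, of 168 bases, with 7.87, 3.25 and 1.84 at 150 mM and 4.46, 5.48 and 4.47 at 300 mM, which overlapped.

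**Figure D5:**
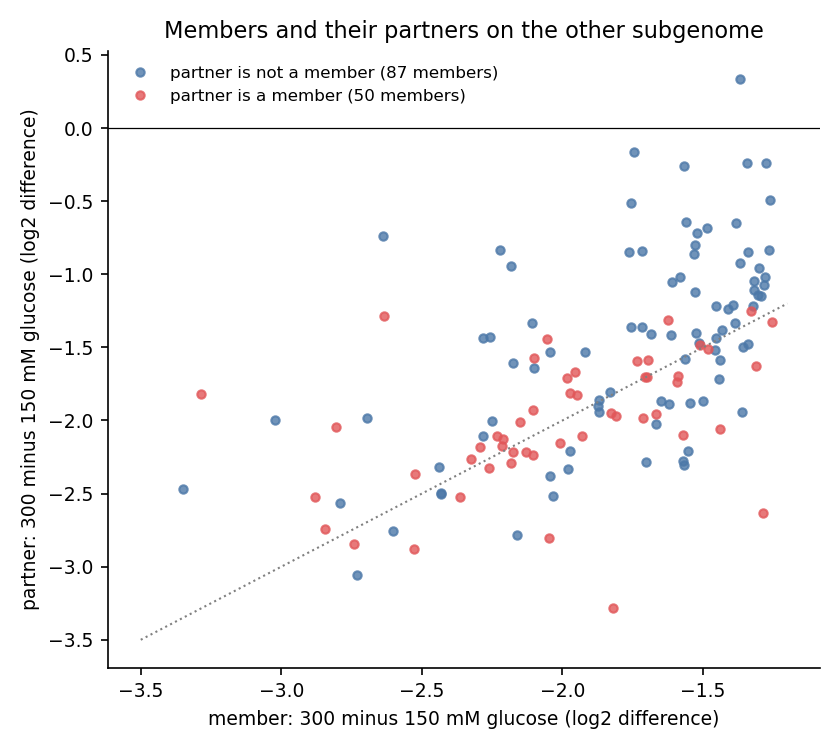
Log2 difference between 300 and 150 mM glucose of a member (horizontal axis) and of its partner, the gene of equal coding length and matching order on the other subgenome (vertical axis), for the 137 members with a tested partner. Red points are partners that are members themselves (50), blue points are not (87), the dotted line marks equal values, and a single partner, at 0.34, lies above 0.

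The limit of the fall cut through a continuous range. The members just inside it were Gohir.A05G072100.v2.1, Gohir.D03G143200.v2.1 and Gohir.D10G035200.v2.1, the latter pair with falls of -1.253 and -1.254. Their mean FPKM was 36.7 ± 11.6, 40.7 ± 4.68 and 37.0 ± 12.8 at 150 mM and 14.9 ± 3.15, 17.1 ± 4.36 and 14.8 ± 1.73 at 300 mM (SD, n = 3). Just outside it, and meeting the rest of the rule, were Gohir.A12G037800.v2.1 and Gohir.D12G243000.v2.1, both with -1.246, and Gohir.A06G010600.v2.1 with -1.242. They had 43.7 ± 10.4, 33.3 ± 10.9 and 78.4 ± 31.6 at 150 mM and 18.1 ± 4.63, 13.4 ± 2.11 and 32.1 ± 9.18 at 300 mM.

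Membership also moved with single libraries. Without replicate 2 at 150 mM, 320 genes met the rule, 225 of them members. Of the 148 members lost, the fall became too small in 102 and the first step too large and downward in 68, some for both reasons. Without replicate 2 at 50 mM 484 genes met it, 330 of them members, and without replicate 2 of both groups 390 did, 189 of them members. Leaving out a 300 mM library in turn kept 334 to 353 members. A rule with fewer libraries is also easier to meet, since fewer have to be separated.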

How the data were processed

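The deposited tables give FPKM per gene and library, 80970 rows in each of 9 files, as the authors made them. The submitters' processing notes name HISAT2 and featureCounts 1.5.0-p3, per the labels; build, annotation, strand use, multi-mapping reads and the library-size term are not stated. Whole reads and lengths were recovered from the ratios between libraries, within 0.0001 of a whole number in 68279 of 68279 rows above 0; 95.5% of Gohir lengths with at least 100 reads were multiples of 3 and are called coding lengths. The labels name no molecular identifiers.

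Log2(FPKM + 0.5) was fitted with limma 3.58.1 (R 4.3.3, statmod 1.5.0, trend and robust variance) on 50988 genes with FPKM of at least 1 in at least 3 of 9 libraries, glucose as the term, with two-sided tests and Benjamini-Hochberg adjustment (0.05). The fit, the read recovery and the partner search were tested on simulated data. Partners needed equal coding length (at least 20 reads), a place on the best collinear chain and 3 other matches within 10 places. Members and lists were chosen with earlier results of these data known. Named genes were the 10 largest falls, the 10 most abundant members, the first 3 neighbour runs, the 5 most abundant partner pairs, the 3 extremes of replicate 1 at 300 mM in each direction and the 3 genes on each side of the limit; any member at 0 in all 300 mM libraries would have been added. Other names are marked as chosen after the values were seen. The alternatives were other pseudocounts, scalings, filters, limits and variance models, limma-voom on recovered reads, a replicate block and leaving out each library.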

Additional observations from a re-analysis of the deposited data

How the results depend on the processing

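The 373 genes meeting the rule became 186 with a first step under 0.25, and stayed within 1.5 times of 373 under every other setting, 320 to 484 without a single library. The calls of members as lower at 300 mM also stayed within 1.5 times of 324 (256 with limma-voom on recovered reads, 259 to 322 without a single library, 291 with the replicate block) and 356, and those of partners within 1.5 times of 98 (76 to 101) and, outside the rule, of 52 (37 to 56), settings for the partners being chosen after the data were seen. The median fall stayed between -1.80 and -1.46 with libraries left out. After scaling by recovered reads it was -1.60, and the median of all tested genes from 50 to 300 mM moved by over 0.1, to 0.13.

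The 2 members called between 50 and 150 mM became 4 with a pseudocount of 1, 6 with scaling to recovered reads, 1 with median-ratio scaling, 0 with no filter on low values, 0 with no trend or robust variance, 10 with only the compared levels fitted, 8 with limma-voom and 0 to 18 without a single library, and 49 without replicate 2 at 50 and 150 mM, a setting chosen after seeing the data. With the replicate block it was 1. Same-numbered libraries did not pair: their deviations correlated at -0.27 to 0.10. Members with a neighbouring member numbered 26 within 2 places and 38 within 5, as wider windows must give; partners, 134 to 145. For the 47 genes named by rule, 694 of 752 calls under alternatives matched, 51 were lost, 7 gained and 0 reversed; the cause was not tested. Counting error limits genes with few reads at 300 mM.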
